A study of Mus musculus with 4 samples.

Results

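The small leucine-rich proteoglycans are secreted matrix proteins built around leucine-rich repeats, many of which bind collagen fibrils and set how the fibrils grow and pack. Their members were taken by name, as the 10 genes Dcn, Bgn, Lum, Fmod, Ogn, Omd, Aspn, Kera, Prelp and Chad, and all 10 were listed in each of the 4 gene tables, of 27999 genes at 1, 1.5 and 3 months and of 31054 genes at 16 months. The rule uses no expression value. Decorin (Dcn), biglycan (Bgn) and asporin (Aspn) form class I of the family, lumican (Lum), fibromodulin (Fmod), keratocan (Kera), osteoadherin (Omd) and PRELP (Prelp) class II, osteoglycin (Ogn) class III, and chondroadherin (Chad) class IV.

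As background, decorin and biglycan carry chondroitin or dermatan sulfate chains, whereas lumican, fibromodulin, keratocan and osteoadherin carry keratan sulfate or its unsulfated form. Asporin lacks the attachment site for such chains, and PRELP binds heparan sulfate through a basic end. In the skeleton, decorin and biglycan are abundant in bone and marrow stroma, fibromodulin and lumican order the collagen fibrils of tendon, osteoadherin is bound to mineralized bone, and chondroadherin is a protein of cartilage. Several members bind TGF-beta and so also bear on growth factor signalling.

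The cells came from male Col2:Td mice (Col2-Cre Rosa26 lsl-tdTomato, strain B6SJL/F1), in which Cre driven by a Col2 promoter switches on tdTomato (Td) in chondrocytes and in the osteoblasts, osteocytes and stromal cells of the bone marrow. All groups carry these alleles, and no treatment is named for any. The 4 groups are the ages 1, 1.5, 3 and 16 months, from 2, 3, 3 and 3 pooled mice, and each is 1 library of sorted Td+ endosteal bone marrow cells, released by digestion from metaphyseal bone after the periosteum and epiphyses were taken off. The sort took the top 1% of cells by Td where no separate Td peak was seen. With 1 library per age there is no replicate, so no test was made, and the 95% intervals below cover counting error only.

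The kept cells had median depths of 6264 to 10279.5 unique molecular identifiers (UMIs), the 3 month library being the shallowest. Cell classes were named from marker genes, with the members left out of clustering. They were early and late mesenchymal progenitor-like (EMP, LMP), tendon-like, lineage committed progenitor-like (LCP), osteoblast-like (OB), osteocyte-like (Ocy), adipocyte lineage-like (AD) and chondrocyte-like (CH) cells, beside neutrophil-, endothelial- and mural-like cells. All 5 LMP and all 6 tendon markers passed in the LMP-like cells at 16 months, where no tendon-like class stood apart. Per library there were 108 to 165 EMP-like, 238 to 639 LMP-like, 228 to 287 tendon-like, 298 to 381 OB-like, 212 to 3681 AD-like and 119 to 1968 CH-like cells. The 3 month LCP-like cells passed 3 of 3 markers but were led by Pf4, Limch1 and Mmp9. Neutrophil-like cells were taken as a guide to the level of free RNA, except at 1.5 months, where the 161 neutrophil-like cells carried cartilage RNA, with 1699 Chad UMIs per 1000000 UMIs (CPM). The guide is rough. At 16 months Ogn was 41.1 CPM in OB-like and 61.8 CPM in neutrophil-like cells, at median depths of 20569 and 7256 UMIs. Subtracting it, with values below it set to 0, can therefore remove too much. The 16 month library shared 1 cell barcode with each of the others, which shared 25 to 57 among themselves, and its gene table differed. With 1 library per age, age and library cannot be told apart.

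Most members lie in 3 clusters of the genome (GRCm38, GENCODE vM21). On chromosome 13, plus strand, Ecm2, a relative outside the 10, is followed by Aspn (49544443 to 49567565), Omd (49582462 to 49592822) and Ogn (49608046 to 49624501), with gaps of 11.7, 14.9 and 15.2 kb. On chromosome 10, plus strand, Dcn (97479609 to 97518143), Lum (97565128 to 97572703), Kera (97606879 to 97613692) and Epyc follow each other with gaps of 47.0, 34.2 and 30.4 kb. On chromosome 1, Optc and Prelp (133910304 to 133921414, minus strand) lie 2.3 kb apart, and Fmod (134037254 to 134048277, plus strand) 115.8 kb further on. Bgn is on chromosome X (73483602 to 73495933). Chad (chromosome 11, 94565047 to 94569127, plus strand) lies within Acsf2, which runs on the minus strand.

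Promoters are shown for the chromosome 13 trio, members that lie side by side, and for Chad, the member of cartilage. A RefSeq start was found for 8 of the 10 members, all but Dcn and Lum, and the 250 bases before it are given 5′ to 3′ (RefSeq, GRCm38.p6). Capitals mark the TATA letters TATAAA, the RUNX core TGTGGT and the E-box CAGNTG, each searched on both strands with overlaps allowed. The SOX core ACAATG was searched as well and had no match in these 4. The windows are chr13:49544193-49544442 for Aspn, chr13:49582212-49582461 for Omd, chr13:49607765-49608014 for Ogn and chr11:94564797-94565046 for Chad, all on the plus strand.
Aspn: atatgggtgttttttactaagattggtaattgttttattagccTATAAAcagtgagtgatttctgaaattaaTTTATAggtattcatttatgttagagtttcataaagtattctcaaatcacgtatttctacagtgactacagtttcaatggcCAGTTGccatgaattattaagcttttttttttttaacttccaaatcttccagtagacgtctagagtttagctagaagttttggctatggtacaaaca
Omd: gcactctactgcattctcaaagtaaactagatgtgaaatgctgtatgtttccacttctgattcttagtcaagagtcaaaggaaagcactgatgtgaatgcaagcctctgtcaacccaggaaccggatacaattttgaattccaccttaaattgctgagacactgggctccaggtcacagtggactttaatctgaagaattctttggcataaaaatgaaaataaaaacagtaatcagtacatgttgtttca
Ogn: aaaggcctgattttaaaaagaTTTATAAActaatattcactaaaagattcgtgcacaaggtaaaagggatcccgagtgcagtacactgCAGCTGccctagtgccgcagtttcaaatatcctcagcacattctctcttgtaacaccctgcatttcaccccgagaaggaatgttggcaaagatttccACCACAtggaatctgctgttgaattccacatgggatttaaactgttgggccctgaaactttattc
Chad: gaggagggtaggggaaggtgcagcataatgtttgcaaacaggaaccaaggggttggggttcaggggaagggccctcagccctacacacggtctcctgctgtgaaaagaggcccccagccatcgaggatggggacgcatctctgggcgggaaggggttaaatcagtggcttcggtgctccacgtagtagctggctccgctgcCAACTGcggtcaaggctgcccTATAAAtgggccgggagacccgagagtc
Of the 32851 promoter windows of the same length in the table, 12.4% held the TATA letters, 14.0% the RUNX core, 10.7% the SOX core and 44.8% the E-box. The TATA letters began 28 bases before the start in Chad, and 207 bases before it in Aspn, with their reverse complement 178 bases before. Ogn held TATA letters on both strands around 229 bases before the start, an E-box at 162 and a RUNX core at 65. No searched letters occurred in the Omd window. The Omd window had 38.4% G and C and that of Chad 60.4%, against a median of 52.4% over all windows, below which Aspn and Ogn lay as well. These are matches of letters and no measure of binding.

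Decorin, which binds collagen fibrils and TGF-beta, was highest in EMP-like and tendon-like cells. In EMP-like cells it was 7448 CPM (7299 to 7599), 11210, 9658 and 9339 in order of age. In tendon-like cells it was 4913, 11469 and 12199 CPM at 1, 1.5 and 3 months. Tendon-like cells stood below EMP-like cells at 1 month and above them at 3 months, but at clustering resolutions of 0.5 and 1.2 EMP-like cells led at 3 months too. At 1.5 months the classes were close, at a ratio of 1.02 (1.00 to 1.05), with EMP-like cells on top in 9 of the 11 other ways of processing. At 16 months LMP-like cells led in 3 of them, but at resolution 0.5, which is 1 of the 3, no EMP-like class could be ranked. LMP-like cells stood lower at 1 month (1655 CPM) than at the later ages (3905, 5572 and 7517 CPM). OB-like cells kept to a narrow band of 4390 to 5469 CPM. At 16 months 194 of the 381 OB-like cells had a median of 1285 UMIs, and their Dcn (4991 CPM) was close to that of the other 187 (5338 CPM). AD-like cells had 354 to 682 CPM, the lowest band of the bone marrow mesenchymal classes, and CH-like cells 475 to 842 CPM. The level in neutrophil-like cells was 79.8, 86.4 and 113 CPM at 1, 3 and 16 months.

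Biglycan, the closest relative of decorin, was the most evenly spread member. Its values in EMP-, LMP-, tendon-, LCP-, OB- and AD-like cells lay between 1766 CPM (LCP-like, 1 month) and 6822 CPM (tendon-like, 1.5 months). Tendon-like cells were on top at 1 and 1.5 months and EMP-like cells at 3 months, where LMP-like cells led at a resolution of 0.5 and tendon-like cells at 1.2. At 16 months OB-like (3016 CPM) and EMP-like cells (2904 CPM) did not differ beyond counting error, at a ratio of 1.04 (0.999 to 1.08). AD-like cells, low in decorin, held 2259, 3862, 3053 and 2863 CPM of biglycan. A Bgn UMI was found in 99.9 to 100% of AD-like cells after thinning to 3000 UMIs, beside 17.2 to 24.5% of neutrophil-like cells at 1, 3 and 16 months.

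**Figure D1:**
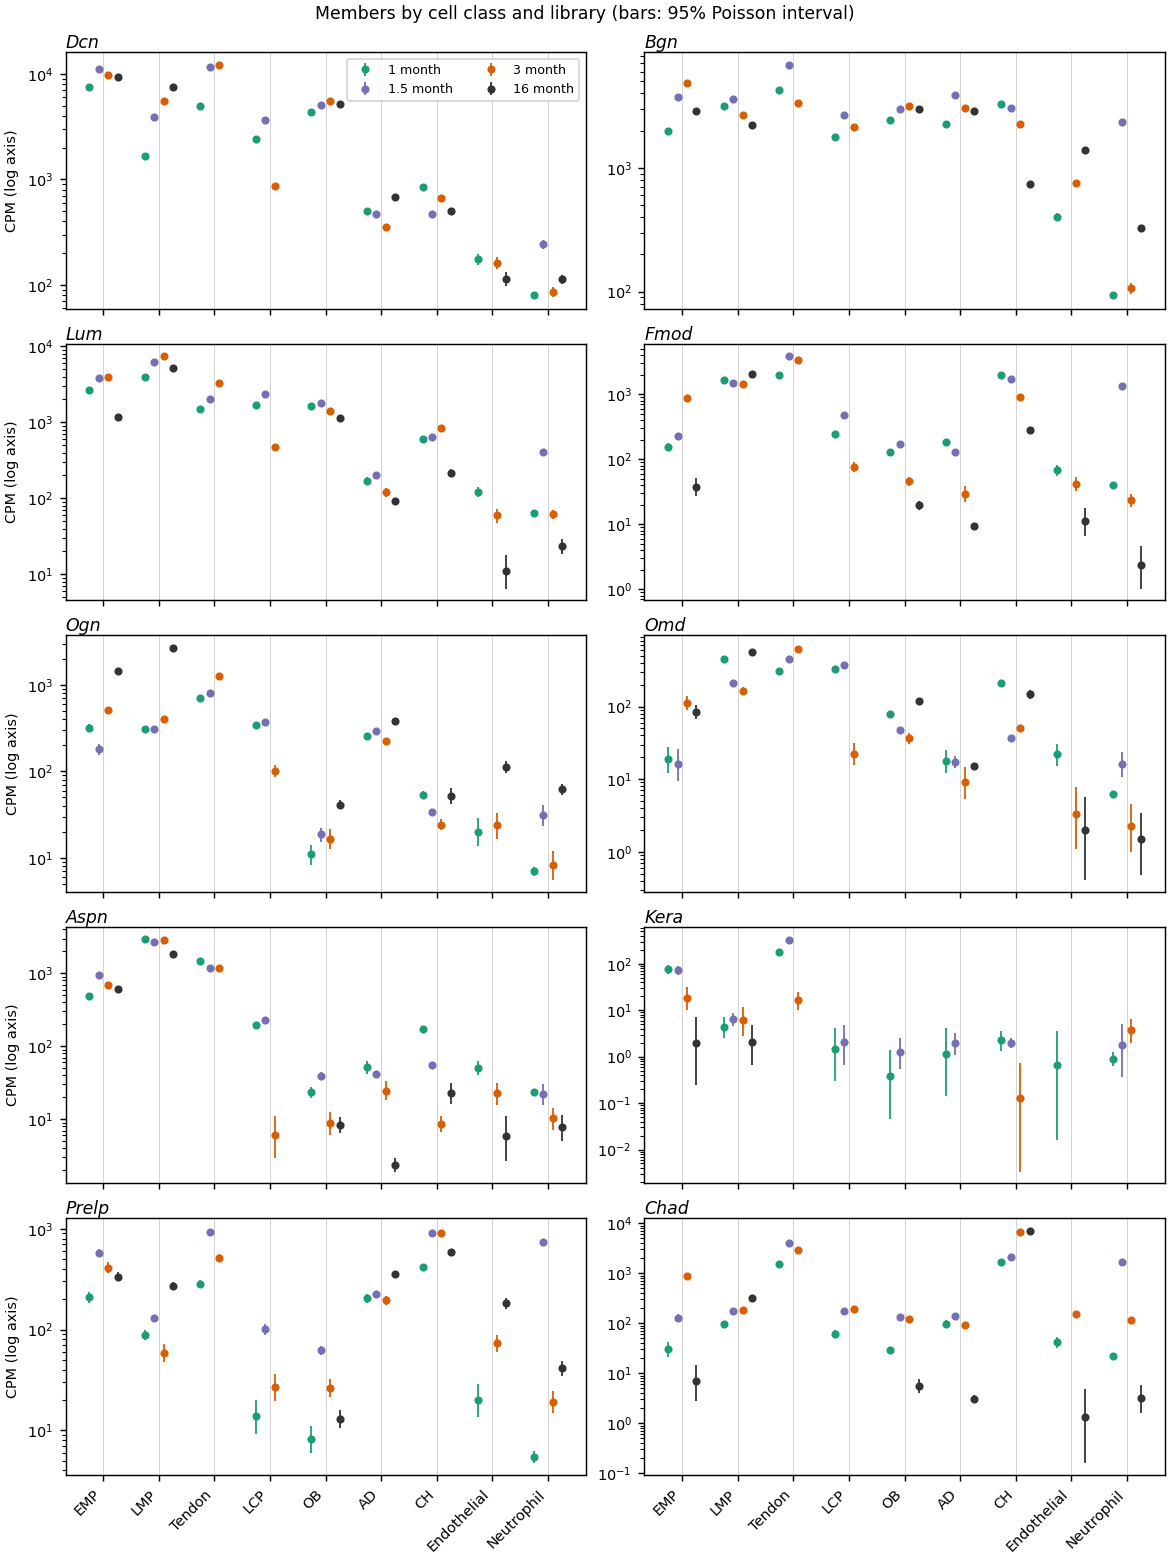
UMIs per 1000000 UMIs (CPM, log axis) of the 10 members in the mesenchymal classes and in endothelial- and neutrophil-like cells, where a class had at least 50 cells, 1 point per library with its 95% Poisson interval and colours for the 4 ages; values of 0 are not drawn. Dcn and Bgn were seen in every class, Lum and Aspn stood highest in LMP-like cells, Kera exceeded 20 CPM only in tendon- and EMP-like cells, and Chad was highest in CH-like cells except at 1.5 months.

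Asporin, which binds collagen and TGF-beta, was led by LMP-like cells in all 4 libraries. In order of age it reached 2939 CPM (2885 to 2994), 2686 (2645 to 2727), 2910 (2823 to 2998) and 1841 (1787 to 1895). Tendon-like cells followed at 1498, 1192 and 1198 CPM, and EMP-like cells at 487 to 944 CPM. OB-like cells held 8.46 to 38.9 CPM and so lay near the 7.72 to 23.9 CPM of neutrophil-like cells. Outside the mesenchymal lineage, mural-like cells had 373 to 702 CPM, and 61.9 to 90.5% of them had an Aspn UMI after thinning, in 21 to 65 cells per library.

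Lumican and fibromodulin compete for related sites on collagen. Their leading cells differed except at 16 months, where LMP-like cells led for both. Lumican was highest in LMP-like cells at every age, at 3959 CPM (3896 to 4022), 6205 (6143 to 6267), 7437 (7298 to 7577) and 5203 (5113 to 5294). EMP-like cells came next, with 2644, 3860 and 3958 CPM in the first 3 libraries and 1186 CPM at 16 months. The gap between these 2 classes was 1.50-fold (1.44 to 1.55) at 1 month and 4.39-fold (4.13 to 4.66) at 16 months. Lumican in OB-like cells was 1152 to 1800 CPM, and in AD-like cells 91.8 to 203 CPM.

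Fibromodulin was highest in tendon-like cells, at 1980 CPM (1925 to 2037), 3865 (3786 to 3946) and 3314 (3214 to 3415). At 1 month CH-like cells equalled them within counting error (1977 CPM, ratio 1.00, 0.969 to 1.03). LMP-like cells held 1434 to 2012 CPM at all 4 ages and led at 16 months. OB-like cells, in contrast, had 128, 172, 46.1 and 19.5 CPM. EMP-like cells were uneven for this gene, at 154, 225, 882 and 38.0 CPM. The neutrophil-like level was 40.8, 23.3 and 2.38 CPM at 1, 3 and 16 months, but 1341 CPM at 1.5 months. That is above the EMP- and OB-like values of the 1.5 month library.

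The 3 month EMP-like cells were made up of 2 subclusters that differed in members. The 113 cells led by Prg4 and Clec3b had 11108 CPM of Dcn, 4682 of Lum, 1182 of Fmod and 416 of Aspn. The 52 cells led by Aspn, Cygb and Cxcl9 had 6165, 2211, 161 and 1383 CPM, and Ogn was higher in them (998 against 301 CPM). Prg4 codes for lubricin, a protein of joint surfaces and tendon sheaths. Among the 3 month EMP-like cells thinned to 3000 UMIs, an Fmod UMI was found in 23.5% of those with an Aspn UMI and 70.2% of those without. These subclusters were defined on the same cells, so the values are a description.

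Keratocan, best known from the cornea, was the narrowest member. Tendon-like cells held 176 CPM (159 to 193) at 1 month, 326 (303 to 350) at 1.5 months and 16.5 (10.2 to 25.2) at 3 months, from 431, 760 and 21 UMIs. EMP-like cells had 75.6, 72.2, 18.6 and 2.00 CPM. At 1.5 months 516 of the 760 UMIs came from a subcluster of 18 cells led by Tnmd, Kera and Thbs4, at 3834 CPM. The other 261 tendon-like cells of that library had 111 CPM. At 1 month the same subcluster, also of 18 cells, had 269 CPM (35 UMIs) and the other 269 cells 170 CPM. The high level at 1.5 months therefore rests on few cells. OB-like cells had 0 Kera UMIs at 3 and 16 months.

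Osteoadherin was not highest in OB-like cells in any library. OB-like cells had 78.4, 47.1, 36.6 and 120 CPM. LMP-like cells led at 1 and 16 months, with 446 (426 to 468) and 560 CPM (531 to 591), and held 214 and 165 CPM at 1.5 and 3 months. Tendon-like cells had 311, 458 and 618 CPM at 1, 1.5 and 3 months. LCP-like cells had 330 and 376 CPM at 1 and 1.5 months, but 22.6 CPM at 3 months, where this class was led by other genes.

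PRELP, a member with a basic heparin-binding end, was highest in CH-like cells at 1, 3 and 16 months and was spread over several other classes. CH-like cells had 420 CPM (406 to 435), 917 (906 to 928), 913 (891 to 934) and 583 (546 to 621). Tendon-like cells came to 285, 930 and 515 CPM and equalled CH-like cells at 1.5 months, at a ratio of 1.01 (0.970 to 1.06). Its level in order of age was 209, 578, 413 and 335 CPM in the EMP-like class and 204, 223, 196 and 354 CPM in the AD-like class, whereas OB-like cells had 8.16 to 62.2 CPM. The neutrophil-like level was 5.41, 19.3 and 41.3 CPM at 1, 3 and 16 months, but 733 CPM at 1.5 months.

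Osteoglycin, also called mimecan, was led by tendon-like cells at 1, 1.5 and 3 months, at 697 CPM (664 to 730.5), 815 (779 to 853) and 1274 (1213 to 1337). At 16 months it was led by LMP-like cells at 2674 CPM (2610 to 2740), after 305, 306 and 407 CPM in the LMP-like cells of the younger libraries. The 16 month class also held the tendon markers, so these classes need not match. AD-like cells, low in most other members, had 255, 291, 222 and 382 CPM of Ogn. OB-like cells had 11.0, 18.7, 16.6 and 41.1 CPM, close to the 7.01, 30.9, 8.24 and 61.8 CPM of neutrophil-like cells. Ogn and its neighbour Omd therefore differed in AD-like cells, where Omd was 9.14 to 17.8 CPM.

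Chondroadherin, a protein of cartilage that binds cells and collagen, was highest in CH-like cells with 1684 CPM (1654 to 1713) at 1 month, 6697 (6639 to 6755) at 3 months and 7160 (7031 to 7291) at 16 months. At 1.5 months tendon-like cells led with 3977 CPM (3896 to 4059) over 2069 CPM (2052 to 2085) in CH-like cells. Tendon-like cells held 1565 and 2983 CPM at 1 and 3 months. Other mesenchymal classes had 28.9 to 897 CPM in the first 3 libraries, beside 22.5 and 114 CPM in neutrophil-like cells at 1 and 3 months. At 16 months CH-like cells stood 21.9-fold (20.4 to 23.5) above the next class, against 2.25-fold (2.17 to 2.32) at 3 months. The next class was tendon-like at 3 months and LMP-like at 16 months, where no tendon-like class stood apart, so these folds are not alike.

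**Figure D2:**
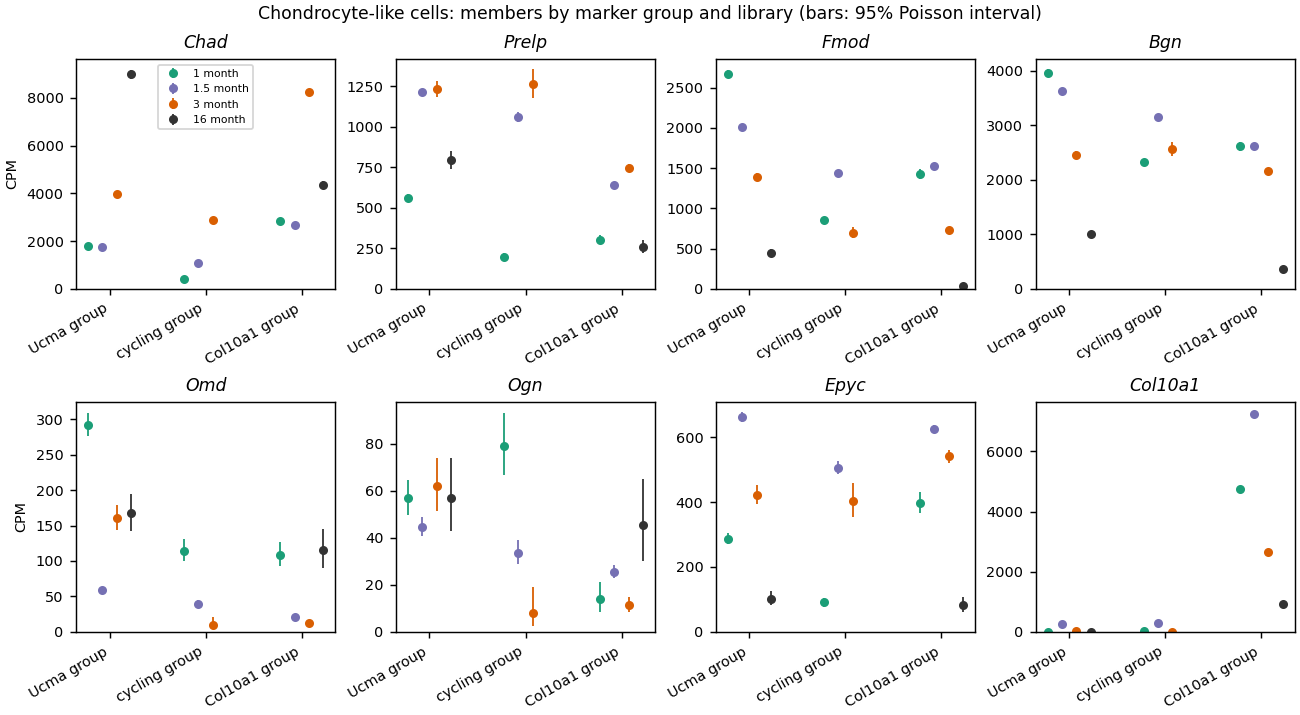
UMIs per 1000000 UMIs (CPM, linear axis from 0) of 6 members, of Epyc and of the marker Col10a1 in the groups of CH-like subclusters, 1 point per library with its 95% Poisson interval and colours for the 4 ages. Fmod and Omd were higher in the Ucma group than in the Col10a1 group at every age, and Chad was higher in the Col10a1 group at 1, 1.5 and 3 months but not at 16 months.

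Within the CH-like cells, subclusters were grouped by which of 3 marker lists stood highest, into a Ucma group, a cycling group and a Col10a1 group. Chad was 2850 CPM (2765 to 2936) in the Col10a1 group and 1811 CPM (1770 to 1852) in the Ucma group at 1 month. At 3 months the values were 8239 and 3963 CPM, so the Col10a1 group stood higher. At 16 months the Col10a1 group had 4342 CPM in 66 cells and the Ucma group 8994 CPM in 53 cells. That Ucma group rests on Ucma alone (930 CPM), with 0 Sfrp5 and 2 Pthlh UMIs and with 745 CPM of Pth1r, a marker of the Col10a1 list, so it need not match the groups of the younger libraries. The cycling group had 413, 1096 and 2865 CPM at 1, 1.5 and 3 months, the lowest of the groups in each library.

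Fibromodulin and osteoadherin ran the other way. Fmod in the Ucma group was 2670, 2007, 1391 and 444 CPM, and in the Col10a1 group 1426, 1529, 725 and 39.0 CPM. Omd was 292, 58.8, 160 and 167 CPM in the Ucma group and 109, 20.5, 12.6 and 115 CPM in the Col10a1 group. Prelp was also higher in the Ucma group at all 4 ages, for example 1232 against 744 CPM at 3 months. At 1 and 1.5 months a CH-like subcluster led by Cytl1 and Sfrp5 held 3286 and 2585 CPM of Fmod and 471 and 244 CPM of Omd. Its Prelp was lower, at 290 and 437 CPM, than the 704 and 1379 CPM of the subcluster led by Ucma.

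To compare shares of cells across depths, each cell was thinned to 3000 UMIs and shallower cells were left out. An Aspn UMI was then found in 83.2% (79.1 to 86.8) of LMP-like cells at 1 month, then 81.2%, 72.4% and 81.1%, and in 75.2 to 89.3% without thinning. Lum was found in 96.3 to 99.6% of LMP-like cells. Kera was found in 16.7% (12.6 to 21.6), 18.3% (13.9 to 23.3) and 2.75% (1.02 to 5.89) of tendon-like cells, so that most tendon-like cells held none at this depth.

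Ogn was found in 48.6, 47.3 and 56.4% of LMP-like cells in the younger libraries. At 16 months, where the class also held the tendon markers, it was found in 91.0% (86.7 to 94.3). Without thinning the shares were 72.2, 71.0, 68.5 and 95.5%. In AD-like cells the share was 51.4, 55.6, 50.4 and 59.5%. Neutrophil-like cells thinned alike had an Ogn UMI in 2.02% at 1 month, 1.18% at 3 months and 7.93% at 16 months. Median depths before thinning were 5694.5 to 9866 UMIs in LMP-like cells and 6009 to 13958.5 in neutrophil-like cells. Chad was found in 72.8, 91.8, 97.6 and 97.3% of CH-like cells, beside 5.89, 86.3, 19.1 and 1.03% of neutrophil-like cells. The share of 86.3% at 1.5 months lay near that of CH-like cells, so shares of Chad in other classes of that library cannot be read as expression.

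**Figure D3:**
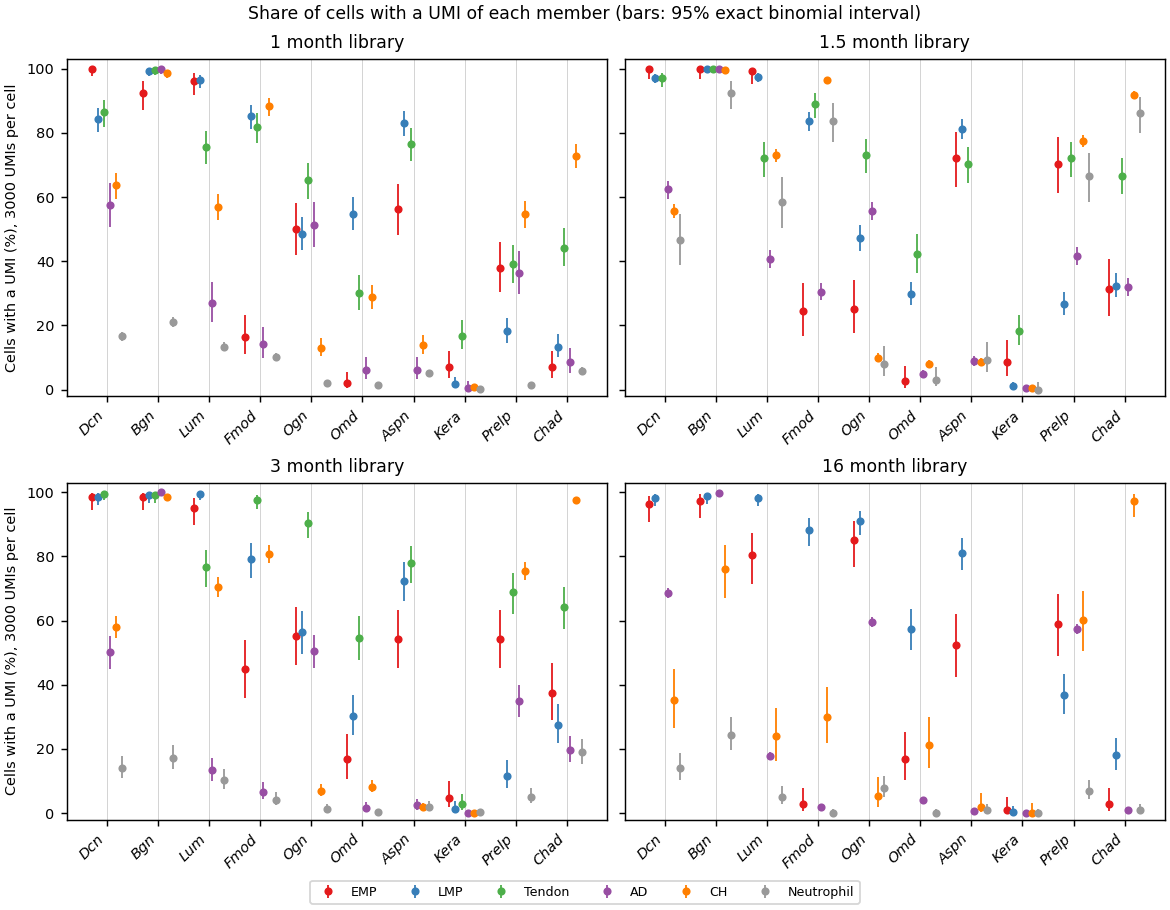
Percent of cells with at least 1 UMI of each member after thinning to 3000 UMIs, 1 panel per library and 1 coloured point per class of at least 50 such cells, with exact 95% binomial intervals. Bgn was found in nearly all mesenchymal cells, Aspn in 72.4 to 83.2% of LMP-like cells and Kera in at most 18.3% of tendon-like cells.

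Members were found together in single cells. The median number of members with a UMI per thinned cell was 6, 7 and 7 of 10 in tendon-like cells, 6, 6, 6 and 7 in LMP-like cells, 5 to 6 in EMP-like cells, and 3 to 4 in AD- and OB-like cells. Neutrophil-like cells had 1, 1 and 0 at 1, 3 and 16 months, and 5 at 1.5 months. For the neighbours Aspn and Ogn, LMP-like cells with an Aspn UMI held an Ogn UMI in 55.2% (49.5 to 60.8) at 1 month, against 15.6% (7.76 to 26.9) of cells without. The values were 54.9 against 14.2% at 1.5 months, 71.2 against 17.7% at 3 months, and 93.4 against 80.4% at 16 months. In LMP-like cells of each library the share with Ogn was higher among cells with Aspn, and the gap was smallest at 16 months. There the class also held the tendon markers. Tendon-like cells had 74.5 against 34.3%, 86.2 against 42.2% and 91.8 against 85.4% at 1, 1.5 and 3 months. In EMP-like cells at 1 month the share with Ogn was 47.2% with Aspn (36.5 to 58.1) and 53.6% without (41.2 to 65.7). At 3 months it was 75.0% (63.0 to 84.7) against 31.6% (19.9 to 45.2). The values were 26.5 against 21.9% at 1.5 months and 89.3 against 80.4% at 16 months, with overlapping intervals. A class can hold cells of several kinds, so this is a description.

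How far the leading class of each member stood above the next was compared over the mesenchymal classes of a library. These numbered 7, 8, 7 and 5 in order of age, so the counts of the libraries rest on unlike sets of classes. At 1 month 2 of 10 members (Ogn and Kera) stood at least 2-fold above the next class, where 10.9% of all 6965 genes with at least 20 CPM did. At 1.5 months there were 4 of 10 (Fmod, Ogn, Aspn and Kera), beside 15.1% of genes. At 3 months there were 5 of 9 (Fmod, Ogn, Omd, Aspn and Chad), beside 13.8%, and at 16 months 5 of 9 (Lum, Fmod, Omd, Aspn and Chad), beside 15.2%. The share was above the background in each library, but members and genes differ in level, and this was not tested. With cells thinned to 3000 UMIs the count at 1 month was 1, and with the highest doublet scores removed that at 1.5 months was 2.

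**Figure D4:**
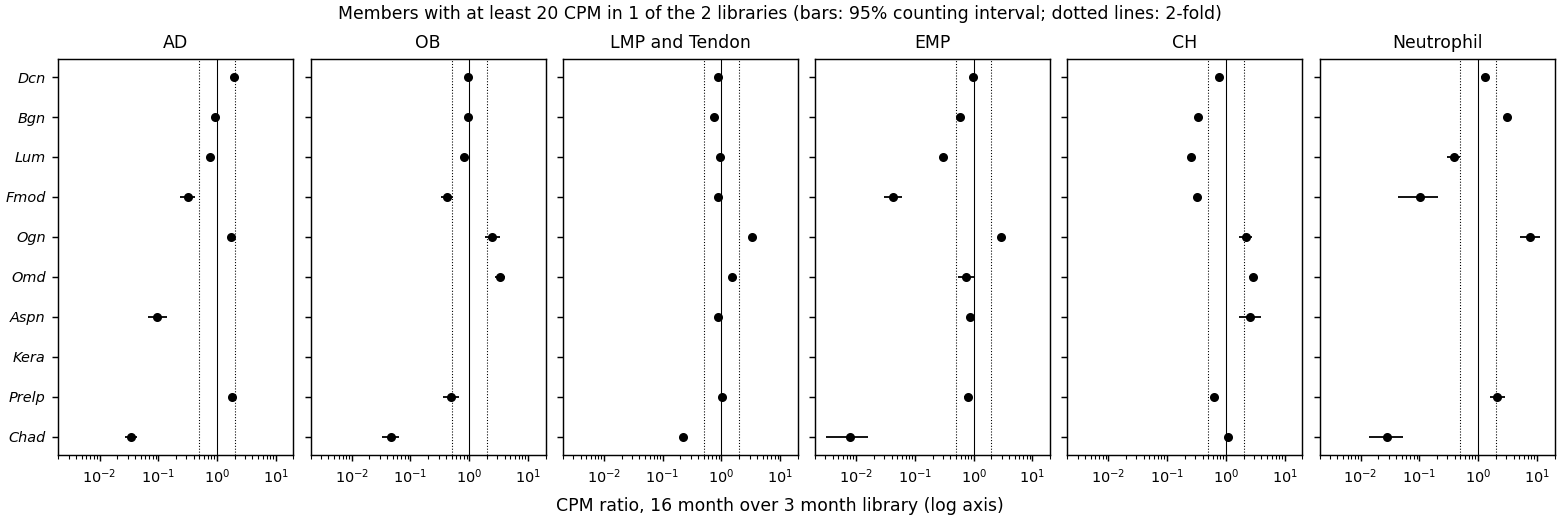
Ratio of the CPM at 16 months to that at 3 months (log axis) of members with at least 20 CPM in 1 of the 2 libraries, 1 panel per class, with 95% counting intervals, a line at 1 and dotted lines at 2-fold. Ogn stood higher at 16 months in LMP- and tendon-like and in EMP-like cells, and Chad lower in AD-, OB-, EMP- and LMP- and tendon-like cells but not in CH-like cells, and neutrophil-like cells show both shifts too.

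Between the 3 and 16 month libraries, a gene was counted when it differed at least 2-fold with at least 20 CPM in 1 of the 2. LMP- and tendon-like cells were pooled, because the 16 month class held the markers of both. In them Ogn was 808 CPM at 3 months and 2674 CPM at 16 months, a ratio of 3.31 (3.15 to 3.47). It was the only one of 9 members counted as higher, where 19.9% of all genes were. Against the 3 month LMP-like cells alone the ratio was 6.57, and against the tendon-like cells alone 2.10. Neutrophil-like cells moved with it, from 8.24 to 61.8 CPM, and endothelial-like cells from 23.9 to 112 CPM. With the neutrophil-like CPM subtracted, Ogn was still counted as higher here and in EMP-like cells. The part of the endothelial-like level was not tested.

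Ogn was also higher in EMP-like cells, at 505 against 1463 CPM (2.89, 2.58 to 3.26), as 1 of 9 members beside 22.8% of all genes. The 3 month EMP-like class pooled 2 subclusters with unlike Ogn, as given above, and the ratio to each alone was not taken. In AD-like cells it was 222 and 382 CPM, a ratio of 1.72 (1.56 to 1.91), and Dcn, at 354 and 682 CPM, had a ratio of 1.93 (1.78 to 2.09). None of 8 members was counted as higher in AD-like cells, where 11.6% of genes were, and with the neutrophil-like CPM subtracted Dcn was. In OB-like cells Ogn (16.6 and 41.1 CPM) and Omd (36.6 and 120 CPM) were higher, 2 of 8 beside 7.24% of genes. The Ogn value there at 16 months lay below the neutrophil-like level of 61.8 CPM.

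Chad was lower at 16 months in AD-, OB- and EMP-like cells and in the pooled LMP- and tendon-like cells. It went from 91.4 to 3.11 CPM in AD-like, 123 to 5.64 in OB-like, 1480 to 327 in LMP- and tendon-like and 897 to 7.0 in EMP-like cells, but was 6697 and 7160 CPM in CH-like cells. Against the 3 month LMP-like cells alone (187 CPM) it was 1.75-fold higher. In neutrophil-like cells Chad went from 114 to 3.27 CPM, and there were 893 CH-like cells at 3 months but 119 at 16 months. With the CPM of neutrophil-like cells subtracted, Chad was no longer counted as lower in AD- and OB-like cells and still was in EMP-like and in LMP- and tendon-like cells.

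Further members were lower in some classes. Of 9 members in EMP-like cells, Lum (3958 and 1186 CPM), Fmod (882 and 38.0 CPM) and Chad were counted as lower, beside 9.19% of all genes. The subclusters pooled in the 3 month EMP-like class also differed in Lum and Fmod, and neither was compared alone. In AD-like cells these were Fmod, Aspn and Chad, 3 of 8 beside 4.87%, at 2.38 to 9.31 CPM at 16 months, and with the neutrophil-like CPM subtracted 0 of them. In OB-like cells they were Fmod, Prelp and Chad, 3 of 8 beside 5.15%, likewise 0 after subtraction, and in LMP- and tendon-like cells Chad alone, 1 of 9 beside 7.36%. A member can drop out after subtraction by falling under 20 CPM, and the part of free RNA was not tested. CH-like cells had Bgn (2265 and 747 CPM), Lum (849 and 216 CPM) and Fmod (896 and 285 CPM) lower, 3 of 9 beside 10.8%. There Ogn (24.2 and 52.2 CPM), Omd (50.7 and 147 CPM) and Aspn (8.69 and 22.7 CPM) were higher, 3 of 9 beside 19.5%, of which Omd was left after subtraction. The 3 month class held 554 cells of the Col10a1 group and the 16 month class 66, and within the Ucma group (285 and 53 cells) Omd was 160 and 167 CPM, Ogn 61.9 and 56.8 CPM, and Aspn 13.7 and 34.5 CPM.

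Between 1 and 1.5 months, LMP- and tendon-like cells had Dcn at 2920 and 5975 CPM and Prelp at 165 and 349 CPM, 2 of 10 members counted as higher beside 2.98% of genes. None of 10 was lower, beside 3.96%. The neutrophil-like level of Prelp went from 5.41 to 733 CPM between these libraries. With it subtracted Dcn was still counted as higher, but Prelp as lower. CH-like cells had 1 of 9 higher (Prelp, 420 and 917 CPM), beside 3.8%, and after subtraction Prelp was lower there as well, where the neutrophil-like cells of the 1.5 month library carry cartilage RNA. Omd (212 and 37.5 CPM) and Aspn (174 and 55.1 CPM) were lower, 2 of 9 beside 6.25%. Omd was lower in each group of CH-like cells. Aspn was 619 and 165 CPM in the cycling group, 37.6 and 28.8 in the Ucma group, and 18.4 and 37.4 in the Col10a1 group. The Col10a1 group held 91 of 569 cells at 1 month and 849 of 1968 at 1.5 months. In CH-like as in LMP- and tendon-like cells, the share of all genes counted was smaller between these ages than between 3 and 16 months.

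The genes with the most similar pattern to each member were taken by Pearson's r of log2(CPM + 1) over 39 profiles of a class in 1 library and 9710 genes. They are given as a description, since profiles of a library share depth and classes recur across libraries. The closest genes were Mmp2 for Dcn (0.924) and Lum (0.948), Fam114a1 for Bgn (0.957), Capn6 for Fmod (0.930) and Cpxm1 for Ogn (0.964). They were Clec11a for Omd (0.864), Col3a1 for Aspn (0.956), Chodl for Kera (0.909), Twsg1 for Prelp (0.899) and Comp for Chad (0.919). Next to them came Boc and Serpinf1 for Dcn, Fbln1 and Igsf10 for Ogn, Prrx2 and Thbs2 for Aspn, and Acan and Mia for Chad. Among members, Dcn and Lum ran most alike (0.8995), then Lum and Omd (0.8174) and Fmod and Chad (0.8046).

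Of 8 further family genes, 5 reached 20 CPM in a mesenchymal class in each library, and Tsku, Optc and Nyx did not. Epyc, of class III, was a gene of CH-like cells at 262, 619, 500 and 94.6 CPM. Chadl, a chondroadherin relative, was likewise highest there, at 352, 323, 512 and 262 CPM. Ecm2, next to Aspn, was led by tendon-like cells at 192, 280 and 278 CPM and by LMP-like cells at 132 CPM at 16 months. Podn was 16.7, 40.4, 24.7 and 92.8 CPM in AD-like cells. Podnl1 was 154, 123, 97.4 and 94.2 CPM in AD-like cells, which led at 1 month, and LMP-like cells led in the other libraries.

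The genes that build and process these proteins were taken as lists. All 6 linker genes of glycosaminoglycan chains reached 20 CPM in a mesenchymal class at 1 and 1.5 months, 5 at 3 and 4 at 16 months. Xylt1, which starts the linker, was highest in CH-like cells at 165, 150, 143 and 284 CPM. Of 16 genes of chondroitin and dermatan sulfate chains 12, 12, 13 and 12 reached it, with the sulfotransferase Chst11 on top in CH-like cells at 134, 313, 349 and 564 CPM. Of 6 keratan sulfate genes 3, 4, 4 and 3 reached it, with B4galt1 and Chst2 among the highest 3 each time. Both tyrosine sulfation enzymes did, Tpst1 being highest in tendon-like cells (186, 227 and 272 CPM) and, in the 16 month library, in LMP-like ones (163 CPM).

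All 9 listed fibrillar collagens reached 20 CPM in each library. Of the 5 propeptide genes 3 did (Pcolce, Pcolce2 and Bmp1), and of the 6 TGF-beta ligands and receptors all 6. Between 3 and 16 months, 7 of 8 collagens tested in CH-like cells were lower and none higher, beside 10.8% and 19.5% of all genes, and Col2a1 was 31861 and 3724 CPM. In LMP- and tendon-like cells, where 7.36% of all genes were lower and 19.9% higher, 3 of 9 collagens were lower (Col2a1, Col11a1 and Col11a2). These fell in neutrophil-like cells too, Col2a1 from 454 to 3.86 CPM, Col11a1 from 60.8 to 9.5 and Col11a2 from 51.2 to 6.83. The part of free RNA was not tested. Tgfbr3 was the 1 of 6 TGF-beta genes counted as higher in LMP- and tendon-like cells. Of 10 chondroitin and dermatan sulfate genes tested there, 2 were higher (Chst15 and Ust) and 2 lower (Chpf and Chst12), so the counts of higher genes lay near the background.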

How the data were processed

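Single-cell RNA sequencing (10x Chromium) of Td+ endosteal bone marrow cells gave 4 libraries, 1 per age. The paper names V3 chemistry for all of them. Whether the 16 month library, with its other gene table and few shared barcodes, had the same chemistry and reference was not tested. The authors aligned reads to mm10 with a modified reference and counted with Cell Ranger 3.0.2, and they deposited raw UMI counts per gene and barcode, unfiltered and not normalized. The study's limits on cells, 200 to 6000 genes and up to 5% mitochondrial UMIs, left 8308, 5453, 4180 and 6143 cells of 8417, 5745, 4516 and 9229 barcodes. At 3 and 16 months these are fewer cells than the study states, by more at 16 months, and the cause was not tested. The deposited counts sum to 108227184, 63258961, 32672631 and 93269331 UMIs.

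Clustering used Seurat 5.3.0 in R 4.3.3. Canonical correlation aligned the 1 with the 1.5 month library and principal components reduced the others, in each case with 2000 variable genes, 30 components and a resolution of 0.8, and mesenchymal clusters were clustered again. The members and 174 other genes (naming markers, lists and family genes) were left out of the variable genes. For a name, 3 or more markers making up 50% or more of a list had to be raised 2-fold, be seen in 10% of the cells and reach 25% of the top cluster's CPM. No doublets were removed in the reported values. A cluster that met this rule was still left unnamed where its 10 leading genes held more markers of another list. Unnamed and mixed clusters entered no class. At 16 months 486 cells were unnamed. Of these, 400 passed 3 of 3 LCP markers, 49 passed 5 of 5 OB and 5 of 5 Ocy markers, and 37 passed 8 of 8 AD markers. The lack of an LCP- or Ocy-like class at 16 months is therefore no sign that such cells were absent.

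UMIs were summed per class and library and scaled to CPM with exact Poisson intervals, and shares have Clopper-Pearson intervals, both at 95% (Python 3.11.15 with numpy 2.4.6, scipy 1.17.1, pandas 2.3.3 and matplotlib 3.10.9). Intervals cover counting error only. Classes under 50 cells were not ranked. The leading class was the ranked class with the highest CPM, with no fold required. Age ratio and selectivity were read at 2-fold and 20 CPM. These 2 rules were tried on simulated counts, which held counting error but no differences between libraries. The text names all 10 members, 8 other family genes, neighbours on the chromosome, genes among the 3 most like each member, and the highest genes of each list. Ages were compared without a test, since each is 1 library. The alternatives changed resolution, components, joint clustering, clustering genes, cell filters, doublets (scanpy 1.11.5), the CPM measure, depth, free RNA, fold and minimum CPM. Members and lists were chosen with earlier results of these data known.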

Additional observations from a re-analysis of the deposited data

How the results depend on the processing

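No paired analysis was possible because each age is 1 library. Leaving out a replicate was not possible for the same reason, and no difference between ages can be told apart from one between libraries. Of 165 counts under the alternatives, 151 stayed within 1.5 times the reported count. For the number of members that kept their leading class, this band allows some members to change. Of 258 counts of members higher or lower in a single class between ages, 55 did not stay within it. The number of members whose leading class stood 2-fold above the next was 2 at 1 month, and became 1 at resolution 0.5, with at least 1000 genes per cell, and with cells thinned to 3000 UMIs. It was 4 at 1.5 months and became 2 with the highest doublet scores removed. At 3-fold it was 0, 1 and 1 at 1, 1.5 and 3 months. Over 5 classes, the pairs of a member and a class that were lower at 16 than at 3 months numbered 13, and 7 with the CPM of neutrophil-like cells subtracted. Those higher numbered 7, and 2 at 3-fold. Between 1 and 1.5 months 7 pairs were higher and 2 lower. The counts were 1 and 22 after subtraction, where the neutrophil-like cells of the 1.5 month library carry cartilage RNA, 14 and 6 at 1.5-fold, and 3 higher at 3-fold.

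At resolution 0.5 the 16 month library gave no value for EMP-like cells, which were under 50 or not named, and its CH-like cells formed fewer than 2 groups. Dcn and Prelp changed their leading class at 1.5 months in 9 of 11 alternatives, to EMP-like and CH-like cells, which were level with tendon-like cells in the reported values. A comparison of the 16 month LMP-like cells with each 3 month class alone was chosen after seeing the data. Against 3 month LMP-like cells alone, Chad had a ratio of 1.75 in place of 0.221 against both classes together. Depth limits the 3 month Kera value in tendon-like cells, which rests on 21 UMIs.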
